A study of Mus musculus with 4 samples.

Results

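Transcript clusters without a gene name, called unnamed clusters here, were all probe sets whose ID starts with TC or TS and for which the platform annotation gives no gene symbol. There were 33206 of them, which is 50.3% of the 65956 transcript clusters in a table of 72688 probe sets. The other 32750 clusters carried at least 1 gene name, and 5222 probe sets against introns and 1324 against exons served as controls on the array. RNA came from whole lung of adult, age-matched mice that received no treatment named in the labels, and each sample was measured on 1 Affymetrix expression array. Wild-type (WT) mice, with the strain given as C57/BL6, and mice with sickle cell disease, with the strain given as SCD Tg (SCD here), had 2 arrays each. Neither the line of sickle cell mice, nor its background strain, the animals' sex or a batch is named in the sources used here, so that the disease genotype and differences of strain, sex or batch cannot be told apart. The p-values measure only the spread between these samples, since the labels do not say beyond 2 lungs per group that each array is a separate animal.

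A transcript cluster collects the probes that the array's design assigned to one transcribed stretch of the genome. Stretches with no gene name can be long noncoding RNAs, RNAs antisense to a gene, retained pieces of introns, extended gene ends or copies of repeats, and the label alone does not say which. Sickle cell disease is a disorder of haemoglobin in which red cells deform and break, and the lung, with its dense bed of small vessels, is one of the organs it affects. The sequences and genome positions of the unnamed clusters were not used here. Their chromosome was read from the ID, and their place was described only by which named clusters carry the neighbouring ID numbers.

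Unnamed clusters were dimmer than named clusters on every array and dimmer than either kind of control. All values are log2 array signals, and differences are SCD minus WT on that scale. The median of the unnamed clusters was 5.42 and 5.38 on the WT arrays and 5.35 on both SCD arrays. The median of the named clusters was 5.91 and 5.86 in WT and 5.90 on both SCD arrays. So the unnamed median lay below the named one by a similar amount everywhere, at -0.490 and -0.487 in WT and at -0.554 and -0.547 in SCD. The gap was wider on both SCD arrays by 0.062, with an exact two-sided permutation p of 0.333, which is the smallest that 2 arrays against 2 can give.

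The middle 50% of unnamed clusters had mean levels between 4.51 and 7.0, against 4.79 to 7.74 for named clusters. Intron controls had median values of 6.48 and 6.47 in WT and 6.31 and 6.27 in SCD, and exon controls 10.01 and 10.15 in WT and 10.26 and 10.29 in SCD. Of the unnamed clusters, 10794 (32.5%) had a mean level above that of the intron controls (6.38), compared with 42.2% of the named clusters. A mean level at or below that of the brightest of the 23 background probe sets, 6.09, was found for 63.5% of unnamed and 53.3% of named clusters. Signals of different probe sets do not compare amounts of RNA, so these levels describe brightness alone.

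The difference of the unnamed clusters was centred slightly below 0, as was that of the intron controls. The median difference was -0.063 over unnamed clusters, 0.0020 over named clusters, -0.18 over intron controls and 0.16 over exon controls. Differences below 0 made up 59.3% of unnamed clusters, 49.6% of named clusters and 59.4% of intron controls, but 38.7% of exon controls. Both control medians differed between the groups, and their part in the differences of the unnamed clusters was not tested. The 2 arrays of a group differed by a median of 0.23 (WT) and 0.20 (SCD) for single unnamed clusters.

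**Figure D1:**
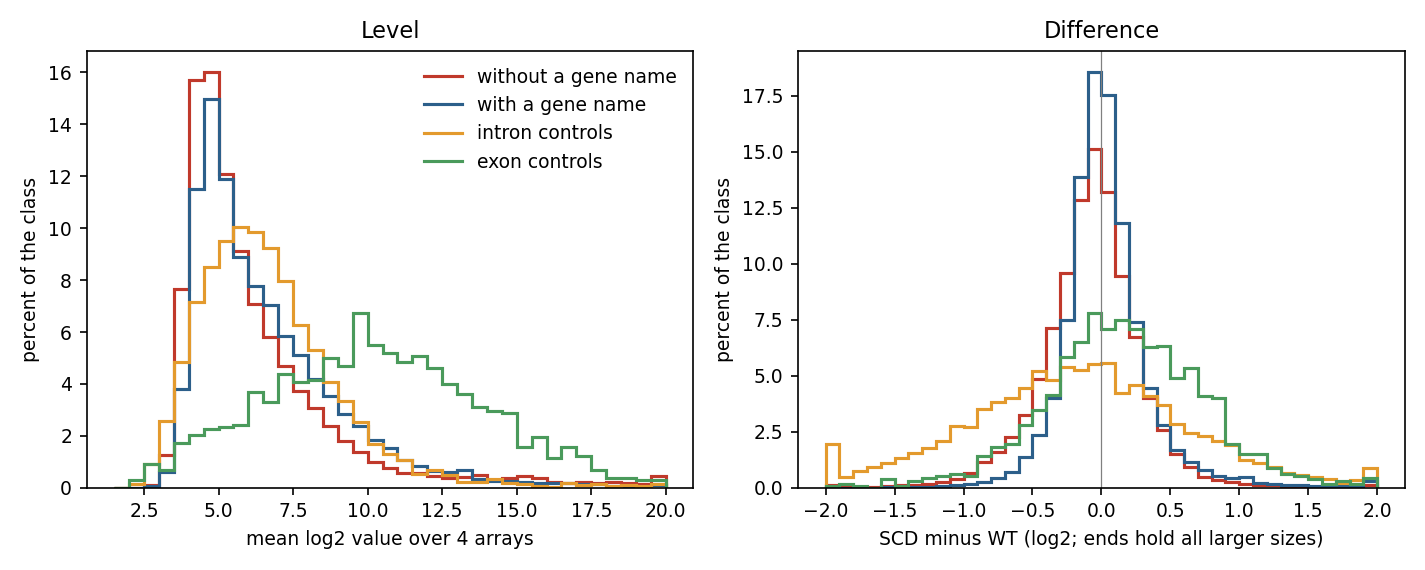
Distribution of the mean log2 value over 4 arrays (left) and of SCD minus WT (right), as the percent of each class of probe set in each interval. Clusters without a gene name peak at lower levels than named clusters and exon controls, and their differences sit slightly to the left of those of named clusters, with medians of -0.063 and 0.0020.

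Unnamed clusters were called mostly lower in SCD and named clusters mostly higher. With limma over all 65956 clusters and a threshold of 0.05 on the adjusted p, 1.47% of all clusters were called, 0.914% higher and 0.553% lower. Among the unnamed clusters 431 (1.30%) were called, 146 higher (0.440%) and 285 lower (0.858%), so that 66.1% of their calls were lower. The remaining 32775 did not pass. Named clusters had 457 calls higher and 80 lower, or 14.9% lower. The difference in direction between the kinds of cluster was not tested.

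With a size of at least 1 added to the rule, 0.697% of all clusters were higher and 0.29% lower, and the unnamed clusters had 93 higher and 133 lower. The WT and SCD values did not overlap for 5050 unnamed clusters that were higher (15.2%, against 20.3% of all clusters) and for 9277 that were lower (27.9%, against 25.2%). In a fit that also held the control probe sets, 0.0949% of 72688 probe sets were called higher and 0.0289% lower. Its unnamed calls were 29 higher and 10 lower, so that the direction of the split turned. That fit called 2 intron controls in each direction and 0 exon controls, which had 217 higher and 71 lower at an unadjusted p under 0.05.

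The split of the unnamed calls rests on the scale, the threshold and single arrays. At an adjusted p under 0.01, 17 unnamed clusters were higher and 5 lower. With the shift of the exon control medians (0.20) taken off the SCD values, which moved the median difference of all clusters to -0.22, 90.3% of the unnamed calls were lower, and with the shift of the intron controls taken off, an alternative chosen after the values were seen that moved it to 0.16, 26.5% were. Limma called 0 unnamed clusters without SCD replicate 1 or without SCD replicate 2 (1078 and 1208 higher, 2401 and 2366 lower at an unadjusted p under 0.05), 48 higher and 10 lower without WT replicate 1, 92 higher and 82 lower without WT replicate 2, and 21 higher and 14 lower without the intensity trend in the variance.

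Calls were concentrated among bright clusters of both kinds in the main fit. Its intensity trend lets the expected variance depend on the level, so the share called by level also reflects this setting. Without the trend 21 unnamed clusters were higher and 14 lower, and these were not split by level. Unnamed clusters with a mean level between 12 and 16 numbered 1087, of which 127 (11.7%) were lower and 64 (5.89%) higher. Many of these had the same 4 values as another cluster, and with each such profile counted once the order turned, at 51 of 870 lower (5.86%) and 63 higher (7.24%). In the same interval 18 of 1053 named clusters (1.71%) were lower and 143 (13.6%) higher. Between 6 and 8, where 7084 unnamed clusters lay, 0.678% were lower and 0.240% higher. Among the 607 unnamed clusters at 16 and over, 25 were called in each direction. The median difference of the unnamed clusters was below 0 in every interval, from -0.014 under a level of 4 to -0.18 between 12 and 16, but taking off the intron control shift (-0.18) turns the sign of most of these.

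**Figure D2:**
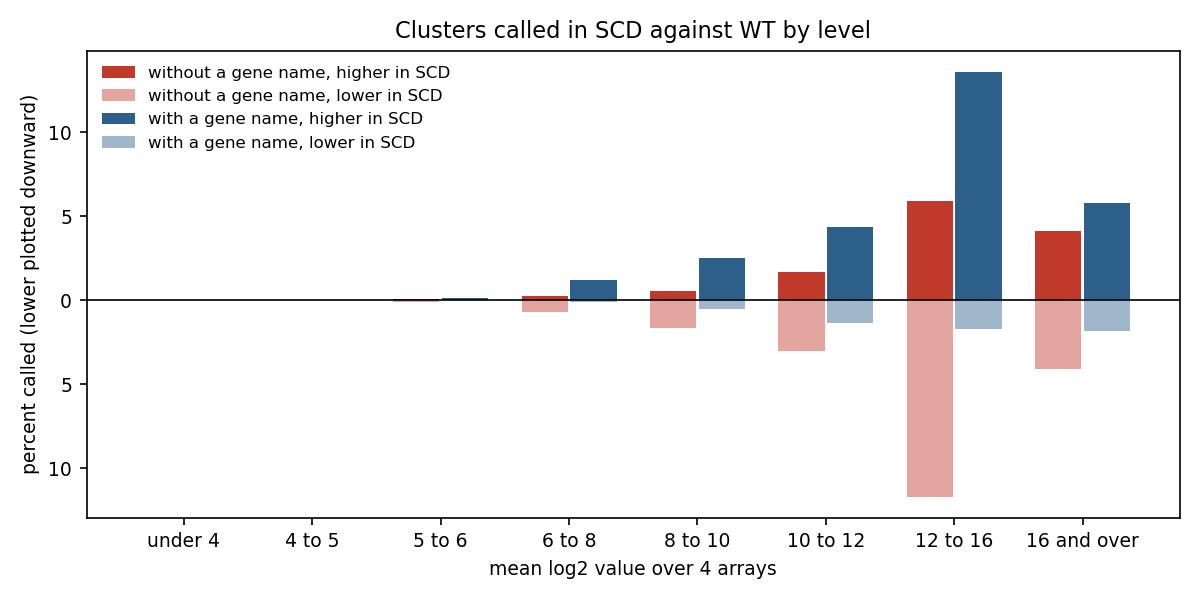
Percent of clusters with an adjusted p under 0.05 in limma with the intensity trend, by mean log2 value over 4 arrays. Clusters higher in SCD are plotted upward and clusters lower in SCD downward. Between 12 and 16, 11.7% of clusters without a gene name were lower and 5.89% higher, whereas 1.71% of named clusters were lower and 13.6% higher. With clusters of the same 4 values counted once, the unnamed shares at this level were 5.86% lower and 7.24% higher.

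The largest increases were spread over several chromosomes, with some from the mitochondrial genome and the start of chromosome 9, and none of the 12 had a neighbouring named cluster that passed. None could pass beside TC0M00000014, TC0M00000015 and TC0M00000017, whose named neighbours stood at 19.93 on all 4 arrays. TSUnmapped00000051 has no neighbour, and only 8 of the 12 have a named cluster before them in number. The count therefore does not set these clusters apart from the decreases below. TC0600002392, on chromosome 6, had values of 8.82 and 8.94 in WT and 12.67 and 13.01 in SCD. Both SCD values lay far above both WT values, a rise of 3.96 ± 0.15 (SE; 15.6-fold, limma adjusted p = 0.0076). Its neighbours in ID number, the clone-named genes A530053G22Rik (-0.074 ± 0.16) and A730020E08Rik (0.25 ± 0.14), did not pass. TSUnmapped00000051, which the design placed on no chromosome, rose from 5.40 and 5.75 to 9.63 and 9.38, by 3.93 ± 0.19 (adjusted p = 0.010). Both of its WT values lay below the level of the brightest background probe set (6.09), so the size of this difference is set against a signal not above background.

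TC1100000086, on chromosome 11, had 9.08 and 8.75 in WT and 12.34 and 12.40 in SCD, a rise of 3.46 ± 0.15 (adjusted p = 0.0087). It follows in ID number Ykt6, which encodes a SNARE protein of vesicle fusion and had a difference of -0.32 that did not pass (adjusted p = 0.41). TC0500001025, on chromosome 5, had 7.92 and 8.85 in WT and 11.67 and 11.77 in SCD, a rise of 3.34 ± 0.32 (adjusted p = 0.027). The WT arrays of this cluster were further apart than its SCD arrays, while the groups did not overlap. It follows Mepe, a gene of the bone and tooth matrix, whose difference was 0.30 ± 0.21.

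TC0200001502, on chromosome 2, rose by 2.58 ± 0.067 from 12.69 and 12.76 to 15.35 and 15.26 (adjusted p = 0.0035). Arrays of a group lay close together for this cluster. TC1300000114, on chromosome 13, rose by 2.48 ± 0.17 from 5.64 and 5.98 to 8.28 and 8.31 (adjusted p = 0.019), again from WT values below 6.09. The cluster just before it in number is Inhba, which encodes a subunit of activin, and its difference of 0.90 ± 0.18 was in the same direction but did not pass (adjusted p = 0.12).

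Clusters from the first ID numbers of chromosome 9 formed the longest run of increases. Numbers 4 to 8 all passed, with rises between 2.04 and 3.07. TC0900000004 went from 12.84 and 12.72 to 15.92 and 15.78, by 3.07 ± 0.080 (adjusted p = 0.0035). TC0900000007 rose by 2.55, TC0900000008 by 2.45, TC0900000005 by 2.35 and TC0900000006 by 2.04. WT and SCD values did not overlap for any of these 5, which were chosen by their calls. Numbers 1 and 2 also rose, by 2.00 and 2.40, and number 3, whose WT values were spread over 18.39 and 17.32, had a difference of 1.81 that did not pass (adjusted p = 0.11). The next named cluster, number 13, is Alkbh8, which modifies transfer RNAs and had a difference of -0.12 ± 0.17.

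**Figure D3:**
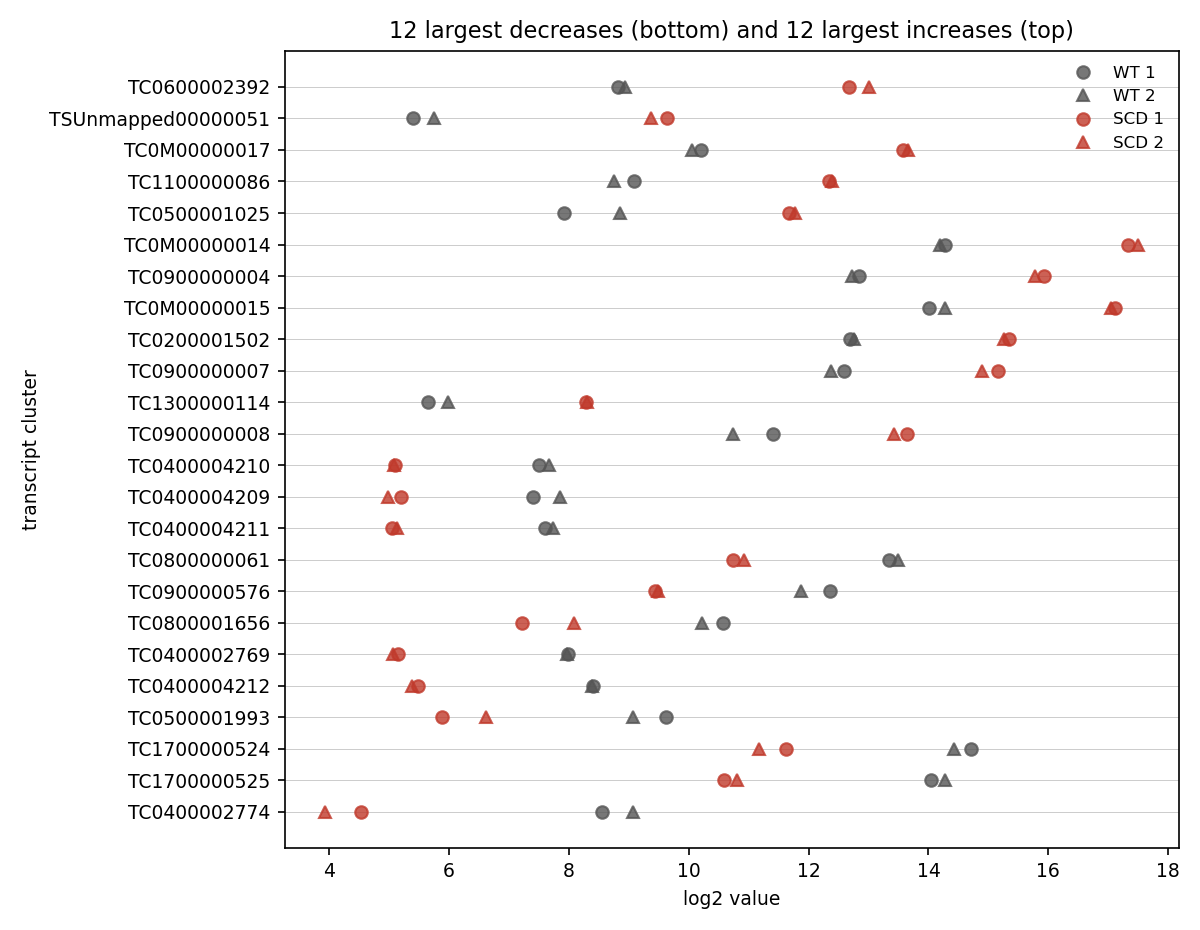
Log2 value on each of the 4 arrays for the 12 largest increases (top) and 12 largest decreases (bottom) among unnamed clusters past the threshold. WT and SCD values do not overlap for any of the 24 clusters, which were chosen by their call and size. Of all clusters, 20.3% were higher and 25.2% lower without overlap. TC0600002392 rises from 8.82 and 8.94 to 12.67 and 13.01, and TC0400002774 falls from 8.56 and 9.08 to 4.53 and 3.94.

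For 9 of the 12 largest decreases, the nearest named cluster before or after in number was also called lower. Over all unnamed clusters, the named cluster before was called lower for 0.463% and the one after for 0.323%. The 9 are not separate cases, since TC0400004209 to TC0400004212 share the same named cluster, and TC1700000524 and TC1700000525 share Glp1r. TC0400002774, on chromosome 4, had 8.56 and 9.08 in WT and 4.53 and 3.94 in SCD, and fell by 4.58 ± 0.29 (limma adjusted p = 0.017). Both SCD values lay below the brightest background probe set (6.09), so that no exact fold is given. Its own neighbours Mup5 (-0.68 ± 0.13, adjusted p = 0.11) and Mup-ps18 (-0.97 ± 0.24, adjusted p = 0.19) did not pass. Mup genes encode the major urinary proteins, lipocalins made mainly in the liver, and their many copies are so alike that probes may not separate them.

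A further 7 unnamed clusters on chromosome 4 are numbered directly before named clusters that the annotation pairs with several genes, Mup genes among them. TC0400004208 to TC0400004212 all fell, with differences from -2.97 to -2.28. TC0400004212 had 8.40 and 8.39 in WT and 5.48 and 5.38 in SCD, a difference of -2.97 ± 0.13 (adjusted p = 0.0087). The named cluster after them fell by 3.08 ± 0.16 (adjusted p = 0.011). TC0400002769 fell by 2.87 ± 0.13 from 7.98 and 7.97 to 5.14 and 5.07, and TC0400002768 by 2.48, before a named cluster that fell by 3.05 ± 0.13. WT values of these 7 clusters lay between 7.23 and 8.40, and their SCD values, between 4.98 and 5.48, lay below the mean level of the brightest background probe set. Of the liver markers, Alb had 5.77 and 5.62 in WT and 4.97 and 4.88 in SCD (-0.77 ± 0.14, adjusted p = 0.093), Apoa1 had a difference of -0.062 and Ttr of -0.050. All values of the 3 lay below the mean level of the brightest background probe set (6.09). Their summed log2 values were 16.02 and 15.69 in WT and 15.05 and 14.89 in SCD, and their part in the Mup result was not tested.

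Unnamed clusters numbered after Glp1r, Efnb2 and Cd36 were also among those that fell furthest. TC1700000525 and TC1700000524 directly follow Glp1r, the receptor of glucagon-like peptide 1. TC1700000525 had 14.04 and 14.28 in WT and 10.59 and 10.81 in SCD, a difference of -3.46 ± 0.13 (adjusted p = 0.0071). TC1700000524 had 14.70 and 14.43 in WT and 11.62 and 11.17 in SCD, a difference of -3.17 ± 0.18. Glp1r itself also fell, and had 11.87 and 11.99 in WT and 8.54 and 8.71 in SCD (-3.31 ± 0.12, adjusted p = 0.0068). The next named cluster, Umodl1, had a difference of -0.032.

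TC0800001656, which follows Efnb2, the ephrin ligand of arterial endothelium, fell by 2.75 ± 0.33, from 10.58 and 10.22 to 7.22 and 8.09 (adjusted p = 0.044). Efnb2 fell by 1.54 ± 0.11. TC0500001993, after the fatty acid receptor gene Cd36, fell by 3.10 ± 0.32, from 9.63 and 9.07 to 5.89 and 6.62 (adjusted p = 0.033). Cd36 was bright, with WT values of 16.41 and 16.40, and fell by 0.66 ± 0.039 to 15.72 and 15.77. In both pairs the unnamed cluster had the larger difference on the log2 scale, which was not tested, and the groups did not overlap.

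Some of the 12 largest decreases had no named neighbour that passed. TC0900000576 follows Cadm1, a cell adhesion gene (-0.53 ± 0.12, adjusted p = 0.15), and fell by 2.65 ± 0.19, from 12.36 and 11.87 to 9.44 and 9.49. TC0800000061, on chromosome 8, had 13.34 and 13.50 in WT and 10.74 and 10.92 in SCD. That is a difference of -2.59 ± 0.11 (adjusted p = 0.0087), with arrays of a group close to each other. The named clusters nearest to it in number are 8 and 6 numbers away, and neither passed.

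The ID number carried position, so that neighbours in number could be described for all unnamed clusters. Of 30888 named clusters with 1 gene in the RefSeq table (GRCm38.p6), 99.6% lay on the chromosome in their ID, and 99.0% of consecutive pairs were in the order of their gene starts. On each of 21 chromosomes, genes of the plus strand came first (95.4% plus in the first block) and genes of the minus strand after them (97.4% minus). A cluster numbered after a gene may therefore start inside that gene or beyond it, and the files do not tell these apart.

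The named cluster before an unnamed cluster was called lower for 29 of 284 unnamed clusters that fell (10.2%), beside 153 of all 33035 unnamed clusters with such a neighbour (0.463%). The named cluster after it was called lower for 9 of 285 (3.16%), beside 107 of 33077 (0.323%). Among unnamed clusters that rose, the named cluster before was called higher for 5 of 135 (3.70%, beside 1.17% of all unnamed) and the one after for 6 of 143 (4.2%, beside 1.43%). Most unnamed clusters that were called thus had no called neighbour with a gene name. Across the 284 unnamed clusters that fell, Pearson's r between their difference and that of the named cluster before was 0.49. Across all 33035 it was 0.16, and across 32508 named clusters with such a neighbour it was 0.16 too. The 284 were chosen by the difference that is correlated here. The named cluster before was called higher for 7.47% of named clusters that rose, and called lower for 2.53% of named clusters that fell. These are descriptions across clusters that share the same 4 arrays, and some share a neighbour.

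The 29 unnamed clusters that fell after a called gene followed 18 named clusters. In all, 89 unnamed clusters were numbered between these 18 and the next named cluster, and 76 of them had a difference below 0. The 76 include the 29, which the choice of these gaps fixed. After all 51 named clusters that were called lower and had unnamed clusters after them, 118 of 153 unnamed clusters had a difference below 0. Kit, the stem cell factor receptor, fell by 2.18 ± 0.11 and the cluster after it, TC0500000711, by 2.27, but of the 6 unnamed clusters between Kit and the next named cluster only this one passed, and 2 had a difference below 0. The elastin gene Eln had a difference of -1.88 ± 0.10 and TC0500003380 one of -2.15, and both passed. Sema6a, a semaphorin gene, fell by 1.58 ± 0.16 and the 2 unnamed clusters after it had differences of -2.49 and -1.39. Other genes that fell ahead of an unnamed cluster that fell were Abi3bp, a matrix protein gene (-1.5, with -2.13 for the cluster), Cttnbp2 (-1.10, with -2.04), Golm2 (-1.07, with -2.07) and Pitpnc1 (-1.21, with -1.48). Clec14a, a gene of vessel endothelium, fell by 1.07 and the unnamed cluster just before it by 1.55.

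After a gene that rose stood 5 unnamed clusters that rose, and before one stood 6. Of the 17 and 23 unnamed clusters numbered in the same gaps, 10 and 14 had a difference above 0, which includes those 5 and 6. In the gaps after and before all genes called higher, 190 of 387 and 196 of 472 unnamed clusters did. Il33, which encodes an alarmin of the interleukin 1 family, rose by 2.39 ± 0.11 and TC1900000449 after it by 1.85. Ackr3, a scavenging chemokine receptor gene, rose by 1.75 ± 0.20 and TC0100000871 by 2.06. Timp3, an inhibitor of metalloproteinases, rose by 1.28 and TC1000001045 by 1.40, and Cyp2b10, a drug-metabolizing P450, by 1.01 and TC0700000431 by 1.17. Before Ly6c1 (1.53) lay TC1500001728, which rose by 0.90, and before Nfe2l2, which encodes the NRF2 factor of the oxidative stress response and rose by 0.80, lay TC0200003789, which rose by 0.77. The genes of these pairs, and the clusters of the chromosome 9 stretch outside its run, were chosen after their values were seen.

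**Figure D4:**
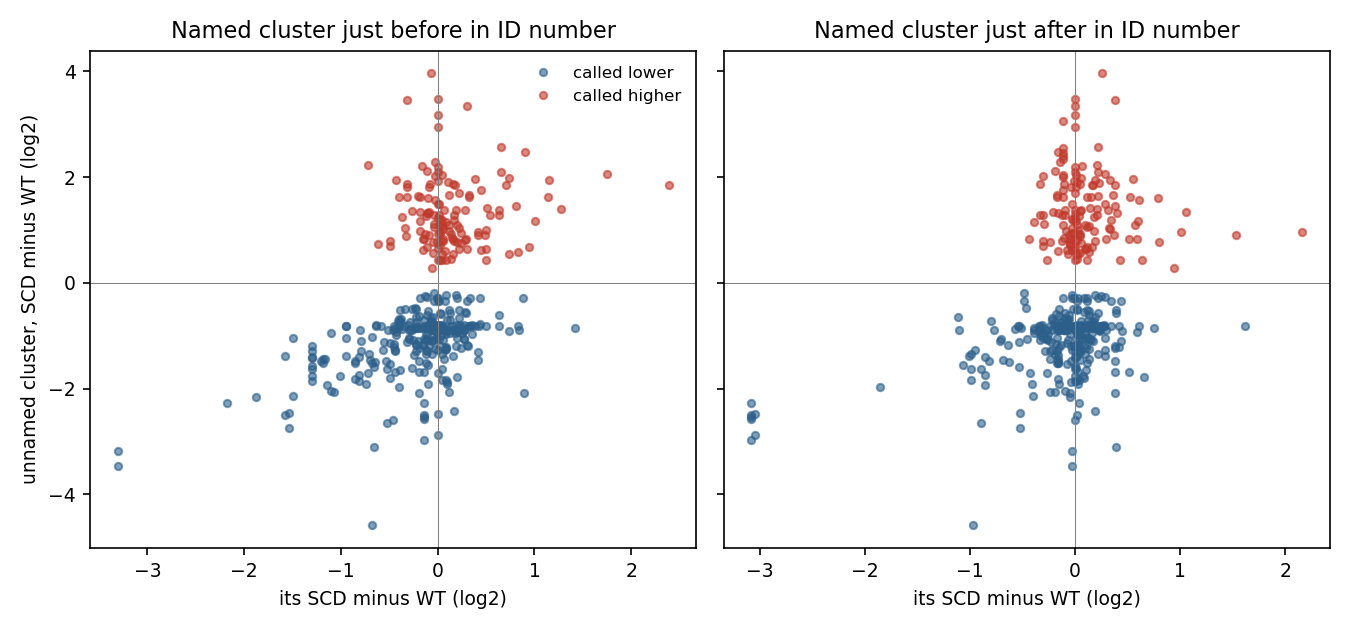
SCD minus WT (log2) of unnamed clusters past the threshold against that of the named cluster just before (left) or just after (right) in ID number. Points called lower extend to the lower left, where Glp1r and the Mup-containing clusters sit near -3.3 and -3.1 as neighbours, whereas most called clusters lie near 0 on the horizontal axis.

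Of the unnamed clusters called, 64 stood in 26 runs of consecutive numbers called in the same direction, 17 runs lower and 9 higher. Among the lower runs, TC0100001325 to TC0100001327 shared all their values, as did TC0500002430 and TC0500002431, so these runs are not separate measurements of each cluster. Along chromosome 13, all 17 unnamed clusters numbered between Arl15 and the next named cluster had a difference below 0, from -2.06 to -0.24, and 8 of them passed. Arl15, a small GTPase-like gene, had 10.64 and 10.81 in WT and 9.44 and 9.41 in SCD and fell by 1.30 ± 0.12 (adjusted p = 0.024). The run TC1300001307 to TC1300001310 fell, with differences from -1.58 to -1.20. TC1300001308 had 9.55 and 9.63 in WT and 8.06 and 7.96 in SCD (-1.58 ± 0.12, adjusted p = 0.019). The groups did not overlap for any of the 4, which were chosen by their calls.

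Runs of decreases also stood after genes that did not pass. After Adgrl3, which encodes the adhesion receptor latrophilin 3 (-0.19 ± 0.12, adjusted p = 0.57), the run TC0500000751 to TC0500000754 fell, with differences from -2.07 to -1.23. TC0500000751 had 10.69 and 10.77 in WT and 8.36 and 8.96 in SCD. Of the 26 unnamed clusters between Adgrl3 and the next named cluster, these 4 were the ones called, and 20 had a difference below 0. After the predicted gene Gm15666 (-0.86 ± 0.18, adjusted p = 0.13), TC1000002802 to TC1000002804 fell, with differences from -1.82 to -1.48. TC1000002803 had 9.04 and 8.95 in WT and 6.92 and 7.43 in SCD, so that the groups lay well apart.

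Mitochondrial clusters were the exception in direction and level. The mitochondrial genome encodes subunits of the respiratory chain along with ribosomal and transfer RNAs, and both of its strands are transcribed as long precursors. Of 19 unnamed clusters with the mitochondrial code, 11 rose and 0 fell, and 15 had SCD values above both WT values. Of all clusters, 0.914% were called higher and 20.3% had SCD values above both WT values. Their median level was 15.8 and their median difference 1.11. TC0M00000017 rose by 3.49 ± 0.097 from 10.20 and 10.06 to 13.57 and 13.66 (adjusted p = 0.0043). TC0M00000014 rose by 3.18 ± 0.072 from 14.28 and 14.19 to 17.33 and 17.50, and TC0M00000015 by 2.94 ± 0.10 from 14.01 and 14.28 to 17.12 and 17.05. The groups lay well apart on all 3.

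TC0M00000021 rose by 2.20, TC0M00000003 by 2.10 and TC0M00000010 by 1.49, and the other 5 that passed rose by 0.43 to 1.30. No direction can be read for the 3 of the 19 that had the highest value of the table, 19.93, on all 4 arrays. Of the 5 unnamed mitochondrial clusters with a mean level over 19, 1 passed, TC0M00000020, which went from 18.82 and 18.95 to 19.31 on both SCD arrays. Of the 11 named mitochondrial clusters, 5 were at that value on all arrays and 7 were identical on all arrays, and 2 rose, the gene of the respiratory complex subunit ND2 by 1.5 ± 0.17 and the transfer RNA gene mt-Tk by 2.87 ± 0.37. Among the 12 unnamed mitochondrial clusters with a mean level under 17, 9 passed.

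On the other chromosomes the pattern was even. Over the 19 autosomes, X and Y, unnamed clusters with a lower call outnumbered those with a higher call on 20 of 21 chromosomes, and on chromosome 19 there were 5 of each. These counts are not separate measurements, since 95 of the 285 lower calls shared all 4 values with another cluster, beside 4 of 146 higher calls. A single profile called lower joined clusters of 17 chromosome codes, and Y had 1 lower call. As above, the direction of the calls also turned in other fits. The median difference of the unnamed clusters ran from -0.091 on chromosome 18 to -0.047 on chromosome 1 and lay below that of the named clusters on all of these but Y. Taking the control shifts off, as above, moves these medians together and can turn their sign, but not their order against the named clusters. Unnamed clusters made up from 37.8% of the clusters on chromosome 7 to 59.0% on chromosome 18, and their median level lay below that of named clusters on all but chromosomes 7 and X. Lower calls ran from 0.333% of the 300 unnamed clusters on Y to 1.38% of the 1375 on X.

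The single call on Y was TC0Y00000225, with 8.83 and 9.23 in WT and 7.34 and 6.90 in SCD, a difference of -1.91 ± 0.23 (adjusted p = 0.043). The unnamed clusters of Y were dim, with a median level of 4.42. It is numbered between Mid1 (-0.74 ± 0.097, adjusted p = 0.053), a ubiquitin ligase gene at the edge of the pairing region of the sex chromosomes, and Uba1y (-0.15). On contigs assigned to chromosome 1 but not placed in it, 51 unnamed clusters had a median difference of 0.32, and 1 of them passed, with a rise of 1.92 ± 0.16. That median equals the difference of a profile of 13 clusters with the same 4 values (0.32 ± 0.82). The WT values of this profile were far apart, at 6.97 and 9.20. The 7 named clusters of these contigs had a median difference of 0.38. Of the 21 unnamed clusters with a TS ID, the one described above passed.

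**Figure D5:**
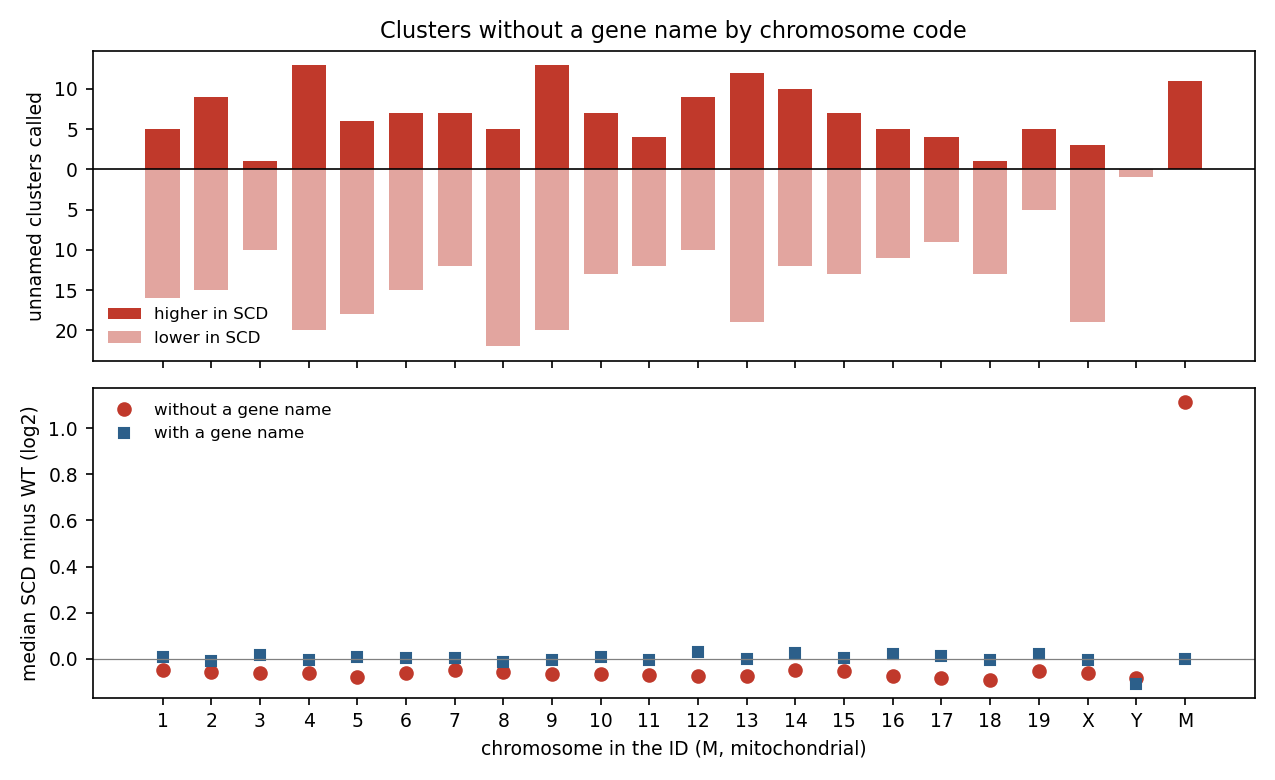
Number of unnamed clusters called higher (up) or lower (down) in SCD on each chromosome of the ID (top) and the median SCD minus WT (log2) of clusters without and with a gene name (bottom). The mitochondrial clusters stand apart, with 11 of 19 higher (0.914% of all clusters) and 0 lower and a median of 1.11. On the other chromosomes the medians of unnamed clusters lie between -0.091 and -0.047.

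Many unnamed clusters had the same 4 values as another cluster, so that not every call was a separate measurement. Apart from clusters constant over the arrays, 814 unnamed clusters shared all 4 values with another cluster, in 202 profiles, of which 188 held unnamed clusters alone. The 285 lower calls were 199 distinct profiles, and the 146 higher calls were 145. The largest profile joined 63 unnamed clusters from 18 chromosome codes, at 15.74 and 15.91 in WT and 15.24 and 14.99 in SCD, and did not pass (-0.71 ± 0.11, adjusted p = 0.067). The next joined 35 from 17 codes, at 14.13 and 14.31 in WT and 13.50 and 13.33 in SCD, and passed (-0.81 ± 0.10, adjusted p = 0.047). A profile of 18 clusters fell by 0.89 and one of 13 by 0.84, both with an adjusted p of 0.019. One unnamed cluster, TC0100000691, had the values of 48 named clusters, all small nuclear RNA genes in the RefSeq table. It went from 12.55 and 12.63 in WT to 13.57 and 13.71 in SCD and rose by 1.05 ± 0.084 (adjusted p = 0.019).

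The brightest unnamed clusters showed little room for a difference. In all, 162 unnamed clusters were identical on all 4 arrays, 85 of them at 19.93. Of the 6 brightest that were not constant, none passed, and their differences ran from -0.20 to 0.020. TC1400001733 had 19.93 and 19.82 in WT and 19.69 and 19.65 in SCD, a difference of -0.20 ± 0.041 (adjusted p = 0.12). TC0100003482 had 19.81 and 19.85 in WT and 19.77 on both SCD arrays (-0.058). The groups did not overlap for these 2, whereas TC1100002474, TC0900002490, TC0M00000026 and TC1300002136 had differences from -0.10 to 0.020 and at least 2 arrays with the same value.

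Markers of lung cells lay above the intron control median on every array, with Aqp5 the lowest at 7.23 and 7.44 in WT and 7.53 and 7.60 in SCD. All 14 of them, from alveolar, airway and vessel cells, had a mean level above the intron control median, Sftpc and Scgb1a1 stood at 19.93 on every array, and none of the 14 passed. Of the 6 blood markers, Alas2, S100a8 and S100a9 rose by 3.52, 2.62 and 2.51. The summed log2 values of the 6 were 61.6 and 62.5 in WT and 72.6 and 72.9 in SCD. Of the heart markers, the atrial gene Myl7 rose by 1.20 and Myh6 had a difference of 0.13, with summed log2 values of 21.75 and 21.85 in WT and 23.06 and 23.20 in SCD. Actc1 was also planned as a heart marker but is not among the values here. The part of blood or atrial cells in the unnamed clusters that rose was not tested. In whole tissue a change in the number of cells of a type and a change in RNA per cell cannot be told apart. Over the unnamed clusters, Pearson's r was 0.989 between the WT arrays, 0.992 between the SCD arrays and 0.985 to 0.987 between groups, across clusters, which are not independent replicates.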

How the data were processed

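The deposited values are log2 signals, 1 for each probe set on each array. The authors made them with RMA, Partek and Affymetrix Expression Console, per the submitters' processing notes, which give no roles, order or versions. The log2 scale was read from the values (1.72 to 19.93). Per the labels, TRIzol was used for RNA extraction and a 3' in vitro transcription kit for biotin labelling. Groups came from the sample titles. The comparison of SCD against WT used limma 3.58.1 under R 4.3.3 (lmFit, eBayes with an intensity trend, two-sided), with Benjamini-Hochberg adjustment over all 65956 transcript clusters, a threshold of 0.05 and no filter. On simulated data for this comparison, with 65956 clusters in 5 simulations, the fit recovered 4.1% of changes of 1 and 49.5% of changes of 2, with 5.8 false calls on average and 0 without change. The simulated noise was normal, independent between clusters and drawn from variances that the fit itself had estimated. It held no shared profiles, constant clusters or differences between whole arrays. The false calls therefore do not measure the error among the calls in the real data. Clusters printed were the 12 largest increases and decreases, the 6 brightest that were not constant, up to 6 called on Y, mitochondrial and TS codes, and the 5 longest runs. The members, lists and rules were chosen with earlier results of these data known. Alternatives were the replicate block, other variance settings, scalings, filters and thresholds, the control probe sets in the fit, and each array left out; removal of the intron control shift, omission of tied clusters and single counting of shared profiles were added after seeing the data.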

Additional observations from a re-analysis of the deposited data

How the results depend on the processing

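The 146 higher and 285 lower calls of unnamed clusters were 85 and 90 with the replicate number as a block, 21 and 14 without the intensity trend, 29 and 10 with the control probe sets in the fit, 315 and 826 at a threshold of 0.1 and 17 and 5 at 0.01, where the higher calls outnumbered the lower in the fits without the trend, with the controls and at 0.01. Robust eBayes gave 182 lower, the exon control shift 1226 lower and the intron control shift, chosen after seeing the data, 521 higher and 188 lower. Leaving out 1 array gave 0 to 92 higher and 0 to 82 lower. Quantile normalization, equal medians, cyclic loess, array weights, filters on dim, constant or tied clusters, and single counting of shared profiles kept the counts within 1.5 times. Whether the replicate numbers pair the samples is not known. Over all 65956 clusters the replicate deviations of the groups had a correlation of -0.022, which cannot settle this, since a pairing may touch only part of the clusters. Of the 42 printed clusters that were called, 29 passed with the block, 20 without the trend, 18 with the controls in the fit, 12 at a threshold of 0.01, 17 without WT replicate 1, 26 without WT replicate 2 and 0 without either SCD array. Those lost with the block were TC0500001993, TC0800001656, the Y cluster, 3 of the chromosome 5 run and the runs of chromosomes 10 and 13. The change in the gap between unnamed and named medians, -0.062, was -0.12 and -0.24 without the dimmest 25% and 50%, -0.11 with means and -0.066 to -0.059 with 1 array left out. Direction reversed for TC0900002490 (-0.19) and TC0M00000026 (-0.18) with the exon control shift off and for TC1100002474 (0.18) with the intron control shift off. The causes were not tested. With 2 residual degrees of freedom the number of arrays limits every value, and signals near the background or at 19.93 carry little or no direction.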
